A study of Mus musculus with 10 samples.

Results

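Replicative histone genes were followed through ex vivo T cell induction in mouse cells. All genes whose symbol begins with Hist1h, Hist2h, Hist3h or Hist4h were taken, which gave 68 of the 24062 genes counted. Of the 68, 60 had at least 1 read and 33 passed a low-count filter (at least 1 read in every 1000000 gene reads, in 2 or more libraries). By class they comprised 6 H1, 18 H2A, 19 H2B, 12 H3 and 13 H4 genes. By cluster they comprised 54 Hist1 genes on chromosome 13, 10 Hist2 genes on chromosome 3, 3 Hist3 genes on chromosome 11 and the single Hist4 gene on chromosome 6. One of them, Hist3h2bb-ps, is annotated as a pseudogene.

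The 10 RNA-seq libraries came from LSK cells (lineage-negative, SCA1+ KIT+ marrow progenitors) of wild-type mice that were grown in flasks with 4GF, a mix of SCF, FLT-3 ligand, IL-6 and IL-11. The IgG group (no Notch; replicates 1 to 4 carry the label names D1, D2, R1 and R2) was grown on human IgG1 at 5 μg/mL and is labelled day 14. The sources used here describe no sort of those cells. DN1 (KIT++ CD44+ CD25-), DN2a (KIT++ CD44+ CD25+) and DN2b (KIT+ CD44lo CD25+) cells, with 2 libraries each, were sorted from cultures on the Notch ligand Delta1ext-IgG at 5 μg/mL. DN1 cells came from 4GF alone, whereas both DN2 populations came from 4GF with IL-7 at 100 ng/mL, added at day 14. Stage, IL-7 and time in culture therefore cannot be told apart between DN1 and DN2. Ligand, sort and time cannot be told apart between IgG and the DN groups. IL-7 cannot be told apart from these between IgG and DN2a or DN2b, and it enters the mean of the DN stages through both.

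Replicative histone genes encode the bulk of the histones that package newly copied DNA, and they are transcribed mainly in S phase. H2A, H2B, H3 and H4 form the nucleosome core, and H1 binds the linker DNA between cores. Their mRNAs usually end in a short stem-loop, bound by SLBP, in place of a poly(A) tail, although some of these genes can also give polyadenylated transcripts. The genes lie in clusters, often as an H2A and an H2B gene that share the DNA between their starts, and close copies have nearly identical coding sequence.

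Stem-loops are shown for genes that differed between the IgG and DN libraries in either direction, because the mode of 3′ end formation bears on which transcripts a library holds. Gene models were GENCODE vM21 (GRCm38), and a degenerate 16-base pattern of the histone 3′ stem-loop, searched on the transcript strand, matched 46 of the 68 genes and 1.28% of the 55341 gene names with a transcript. Some models without a match end at or near the stop codon. Hist1h2bc, which was lower in the DN libraries, has a model of 1156 bases without a match and is therefore not shown. Capitals mark the 16-base match, to which the coordinates refer.
Hist1h1c, chr13:23739512-23739527, plus strand: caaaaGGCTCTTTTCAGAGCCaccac
Hist1h2ac, chr13:23683477-23683492, minus strand: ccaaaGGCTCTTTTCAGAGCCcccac
Hist1h2bk, chr13:22036300-22036315, plus strand: ccaaaGGCTCTTTTAAGAGCCactaa
Hist1h3c, chr13:23745047-23745062, minus strand: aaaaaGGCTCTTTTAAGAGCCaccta
Hist1h4c, chr13:23698089-23698104, minus strand: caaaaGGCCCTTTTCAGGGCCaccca
Hist1h4m, chr13:21812129-21812144, plus strand: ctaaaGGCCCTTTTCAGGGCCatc

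The form in Hist1h1c and Hist1h2ac, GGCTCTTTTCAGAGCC, was shared by 26 of the 46 genes. The longest Hist1h1c model ran on for 840 bases after its stem-loop and that of Hist1h4c for 454 bases, whereas that of Hist1h4m ended 3 bases after it. Of the 46 models, 23 extended more than 100 bases past the match.

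Promoter windows are shown for the gene that was lowest in the DN libraries relative to IgG among those that passed the low-count filter, for an H2A gene whose window spans the DNA shared with Hist1h2bc, and for an H3 and an H4 gene that were higher in the DN libraries. RefSeq windows (GRCm38.p6, 250 bases before to 50 after the start) matched 61 of the 68 genes. Capitals mark, on either strand, the CCAAT box, the TATA element spelled TATAAA and the octamer-factor site of H2B promoters, spelled ATTTGCAT.
Hist1h1c, chr13:23738557-23738856, plus strand: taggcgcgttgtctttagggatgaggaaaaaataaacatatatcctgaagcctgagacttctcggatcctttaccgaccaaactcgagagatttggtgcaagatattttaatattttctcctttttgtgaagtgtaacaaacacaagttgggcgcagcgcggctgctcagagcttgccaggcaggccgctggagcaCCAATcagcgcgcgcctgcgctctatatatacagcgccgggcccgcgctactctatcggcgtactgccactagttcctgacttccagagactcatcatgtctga
Hist1h2ac, chr13:23683910-23684209, minus strand: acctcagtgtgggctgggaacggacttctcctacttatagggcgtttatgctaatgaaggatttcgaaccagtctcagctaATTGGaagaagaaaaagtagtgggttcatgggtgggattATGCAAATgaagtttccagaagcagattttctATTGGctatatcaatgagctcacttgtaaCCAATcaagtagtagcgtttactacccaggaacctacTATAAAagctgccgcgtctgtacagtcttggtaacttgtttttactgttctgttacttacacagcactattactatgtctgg
Hist1h3c, chr13:23745472-23745771, minus strand: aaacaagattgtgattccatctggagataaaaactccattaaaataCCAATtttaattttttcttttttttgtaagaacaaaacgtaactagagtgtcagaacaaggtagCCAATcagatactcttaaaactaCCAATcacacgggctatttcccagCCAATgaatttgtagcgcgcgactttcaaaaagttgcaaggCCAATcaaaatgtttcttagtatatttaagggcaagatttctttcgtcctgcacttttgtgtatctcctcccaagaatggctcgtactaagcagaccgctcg
Hist1h4c, chr13:23698409-23698708, minus strand: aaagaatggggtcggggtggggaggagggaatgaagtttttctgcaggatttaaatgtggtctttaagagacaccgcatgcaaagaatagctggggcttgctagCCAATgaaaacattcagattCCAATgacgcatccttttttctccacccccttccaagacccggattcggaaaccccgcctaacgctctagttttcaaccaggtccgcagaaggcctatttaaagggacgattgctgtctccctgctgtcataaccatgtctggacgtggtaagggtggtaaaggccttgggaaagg

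CCAAT was present in 52 of the 61 windows (85.2%) and in 37.4% of all 32851 RefSeq windows. It was in all 6 H1, 17 H2A, 16 H2B and 10 H3 windows and in 3 of the 12 H4 windows. TATAAA was present in 57.4% of the members' windows and 13.6% of all windows. The octamer was present in 13 of the 61 windows (21.3%) and in 1.74% of all windows. Of those 13, 7 were H2A and 6 were H2B windows, and head-to-head pairs can share a site. Hist1h1c, which was lower in the DN libraries, and Hist1h3c and Hist1h4c, which were higher, all held CCAAT and none of them held TATAAA.

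Gene reads numbered 12354635 to 35367925 per library, and values are given as CPM, counts scaled to 1000000 gene reads per library. A count of 0 allows up to 3 reads, or 0.0848 to 0.243 CPM. Reads that aligned to more than 1 place were tallied apart from genes. They made up 16.4% to 22.5% of all tallied reads in IgG and 17.2% to 30.1% in the DN libraries. How many of them came from histone genes cannot be told from the counts. Of all 36-base stretches in a member's transcripts, the share found at 1 place among GENCODE transcripts ranged from 0% to 100% (median 46.8%). For the 8 members without any read it was 1.99% to 64.7% (median 8.70%). Those 8 were Hist1h2ao, Hist1h2ap, Hist1h2bq, Hist1h2br, Hist1h4n, Hist2h2aa1, Hist2h3c1 and Hist2h3c2. Members with few unique stretches are open to undercounting, so CPM is used here to set a gene or a sum beside itself in other libraries, and genes are put in order of level only per kilobase of unique stretch. A pair of RNAs without a poly(A) tail, chosen after their values were seen, were also scarce: Rmrp lay at 0.506 to 1.70 CPM and Rpph1 at 0.742 to 5.33 CPM. The kit is labelled as one for total RNA, and whether poly(A) RNA was selected is not given in the sources used here.

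The summed level of the 68 genes did not separate the groups. The sum was 104, 62.4, 75.9 and 58.1 CPM in IgG replicates 1 to 4. It was 72.3 and 85.6 CPM for the DN1 pair, 80.0 and 129 for the DN2a pair, 97.0 and 103 for the DN2b pair. The mean was 75.1 ± 20.7 CPM for IgG (SD, n = 4). The DN1 mean was 78.9 ± 9.36 CPM, the DN2a mean 105 ± 34.7 CPM and the DN2b mean 99.97 ± 4.23 CPM (SD over 2 libraries). All members together took 0.00581% to 0.0129% of gene reads.

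What differed was which histone genes made up the sum. Hist1h1c, which encodes a linker histone, and Hist1h2bc, an H2B gene, together gave 50.1% to 77.6% of the histone reads in the IgG libraries and 5.28% to 17.7% in the DN libraries. A share of reads also depends on transcript length and unique share. The other 66 genes, a set formed after the values were seen, summed to 23.3, 23.9, 24.2 and 29.0 CPM in IgG. They summed to 59.6 and 76.4 CPM for the DN1 pair, 75.8 and 122 for the DN2a pair, 91.6 and 94.0 for the DN2b pair, so that every DN library lay above every IgG library.

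**Figure D1:**
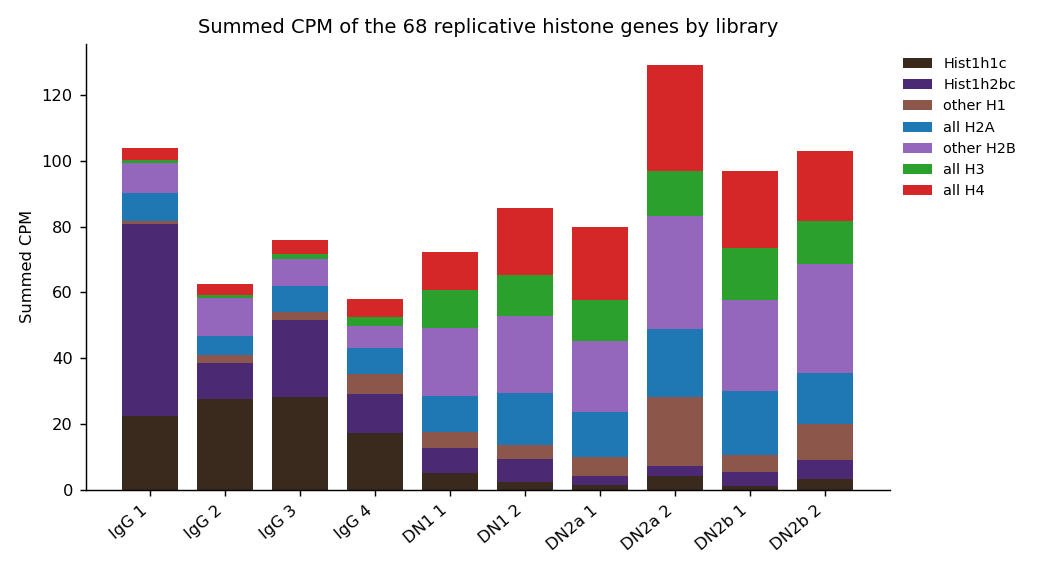
Summed CPM (y axis) of the 68 replicative histone genes in each of the 10 libraries (x axis), stacked by gene or class, with Hist1h1c and Hist1h2bc at the bottom. The totals overlap between groups, while the dark bottom segments make up 50.1% to 77.6% of the IgG bars and 5.28% to 17.7% of the DN bars.

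By class, H3 separated the groups most widely. Summed H3 lay at 0.872 to 2.49 CPM in IgG and at 11.5 to 15.8 CPM in the DN libraries, a ratio of DN to IgG means of 8.96. Summed H4 lay at 3.20 to 5.70 CPM in IgG and at 11.7 to 32.2 CPM in DN, a ratio of 5.13. Summed H2A lay at 5.85 to 8.33 CPM in IgG and at 11.1 to 20.6 CPM in DN, a ratio of 2.14. Without Hist3h2a it lay at 1.79 to 4.42 CPM in IgG and 7.47 to 17.7 CPM in DN, a ratio of 4.33. For these 3 classes all 6 DN libraries lay above all 4 IgG libraries.

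Summed H2B did not separate the groups, at 18.5 to 67.7 CPM in IgG and 24.6 to 38.9 CPM in DN. Without Hist1h2bc, summed H2B lay at 6.78 to 11.3 CPM in IgG and 20.6 to 34.4 CPM in DN. Summed H1 ran the other way, with 23.4 to 30.5 CPM in IgG and 6.50 to 25.2 CPM in DN, overlapping in DN2a replicate 2. Without Hist1h1c, summed H1 was 1.02 to 6.03 CPM in IgG and 4.27 to 20.9 CPM in DN, which also overlapped.

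**Figure D2:**
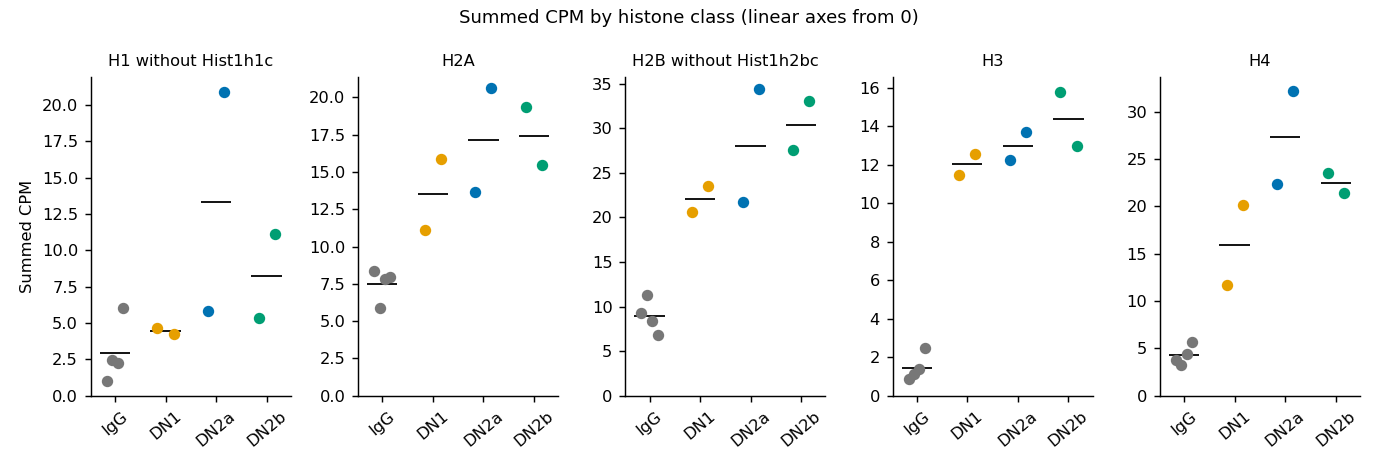
Summed CPM (y axes, linear from 0) of each histone class by group (x axis), with H1 shown without Hist1h1c and H2B without Hist1h2bc. Points are libraries and lines are group means. H2A, H2B, H3 and H4 sit higher in all 6 DN libraries than in all 4 IgG libraries, whereas H1 overlaps.

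By cluster, no summed level separated the groups, and Hist1 as a whole overlapped at 49.0 to 89.6 CPM in IgG and 54.7 to 109 CPM in DN. Hist1 comprises 18 members at chr13:21715763-21837530, 5 at chr13:22035164-22043676 and 31 at chr13:23531050-23934851. The first stretch summed to 1.55 to 3.07 CPM in IgG and 6.32 to 19.5 CPM in DN. The middle stretch summed to 2.04 to 3.68 CPM in IgG and 11.1 to 26.4 CPM in DN. The last stretch, which holds Hist1h1c and Hist1h2bc, summed to 42.4 to 86.1 CPM in IgG and 37.3 to 63.5 CPM in DN. Without those 2 genes it summed to 5.28 to 13.3 CPM in IgG and 24.6 to 56.3 CPM in DN. The sums overlapped for Hist2 (4.65 to 9.57 CPM in IgG, 5.28 to 14.1 in DN), Hist3 (2.53 to 7.22 and 1.03 to 4.29) and Hist4 (0.226 to 0.921 and 0 to 2.08). Within Hist2, Hist2h3b, the only H3 gene there with a read, lay at 0 to 0.169 CPM in IgG and at 0.216 to 1.02 CPM in DN, higher in every DN library but not called (edgeR adjusted p = 0.0803 in a fit of all genes with a read).

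Each gene was then tested with edgeR's quasi-likelihood test, and a gene is said to have risen or fallen where its Benjamini-Hochberg adjusted p over all genes tested was below 0.05. The low-count filter bears on the counts: 28 of the 33 genes that passed it did so only through DN libraries, and 5 (Hist1h1c, Hist1h2bc, Hist1h4i, Hist2h2be and Hist3h2a) would also have passed through IgG libraries. For all genes tested, 983 of 12221 passed only through DN libraries. Members are therefore counted first among all 60 with a read, in a fit without the filter. For the mean of the DN stages over IgG, 27 of the 60 rose, against 15.2% of all 18854 genes with a read, and 4 fell, against 23.0%. Hist1h1c, Hist1h2bc, Hist1h2aa and Hist1h2af were the 4 that fell. The 6 DN libraries carry 2 label years, and the study's methods describe DN1, DN2a and DN2b cells as taken from each LSK replicate. This fit treats the libraries as independent samples, which makes its p-values too small if those of a year share an isolate. With the DN libraries of a label year summed, a fit chosen after the data were seen, 19 of the 60 rose against 12.6% of all genes, and 2 fell against 13.3%. All 21 were among the 31 above, and the calls lost were those of Hist1h2aa, Hist1h2ab, Hist1h2af, Hist1h2ah, Hist1h2ak, Hist1h2bg, Hist1h2bm, Hist1h3e, Hist1h3f and Hist1h3g. All 6 DN libraries lay above all 4 IgG libraries for 29 of the 60 (14.5% of all genes with a read) and below them for 4 (13.5%).

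By class in the fit without the filter, where 15.2% of all genes rose and 23.0% fell, 6 of 10 H3 genes with a read rose and none fell, 6 of 12 H4 genes rose and none fell, 7 of 15 H2A genes rose and 2 fell, 7 of 17 H2B genes rose and 1 fell, and 1 of 6 H1 genes rose and 1 fell. With the DN libraries of a label year summed, where 12.6% of all genes rose and 13.3% fell, the counts that rose were 3 of H3, 6 of H4, 4 of H2A, 5 of H2B and 1 of H1, and those that fell were 1 of H2B and 1 of H1. By cluster, all 31 genes that rose or fell were Hist1 genes, of 49 with a read there, and none of the 7 Hist2, 3 Hist3 and 1 Hist4 genes with a read passed the test.

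The counts with the filter are a description, since most members passed it only through the libraries where they were high. With the filter, 14 of 33 members rose in DN1 over IgG, against 14.3% of all genes tested, and 2 fell, against 17.0%. In DN2a over IgG, 24 rose against 21.2% of all genes tested, and 2 fell against 24.3%. In DN2b over IgG, 22 rose against 19.9%, and 2 fell against 22.5%. For the mean of the DN stages over IgG, 23 rose against 24.8%, and 2 fell against 30.0%. These comparisons share the same 4 IgG libraries, and in each of them the members that fell were Hist1h1c and Hist1h2bc. Unless another fit or comparison is named, values below come from the fit with the filter, for the mean of the DN stages over IgG. For members that passed it only through DN libraries, these p-values are a description as well. In the fit without the filter, label years summed, edgeR adjusted p was 0.00343 for Hist1h3c, 0.00535 for Hist1h3a and 0.00337 for Hist1h4c. There it was 0.00237 for Hist1h2ag, 0.00195 for Hist1h2bk and 0.0150 for Hist1h1a. The calls lost in that fit are named above.

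Some counts with the filter rest on single libraries of the stage compared. Without DN1 replicate 2, 6 of 32 members rose in DN1, against 6.84% of all genes, and none fell, against 8.63%. Without DN1 replicate 1, 13 rose against 11.1%, and 1 fell against 11.8%. Without DN2a replicate 2, 14 of 28 members were called in DN2a, against 26.6% of all genes. Without DN2b replicate 1, 14 of 33 were called in DN2b, against 22.0%.

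**Figure D3:**
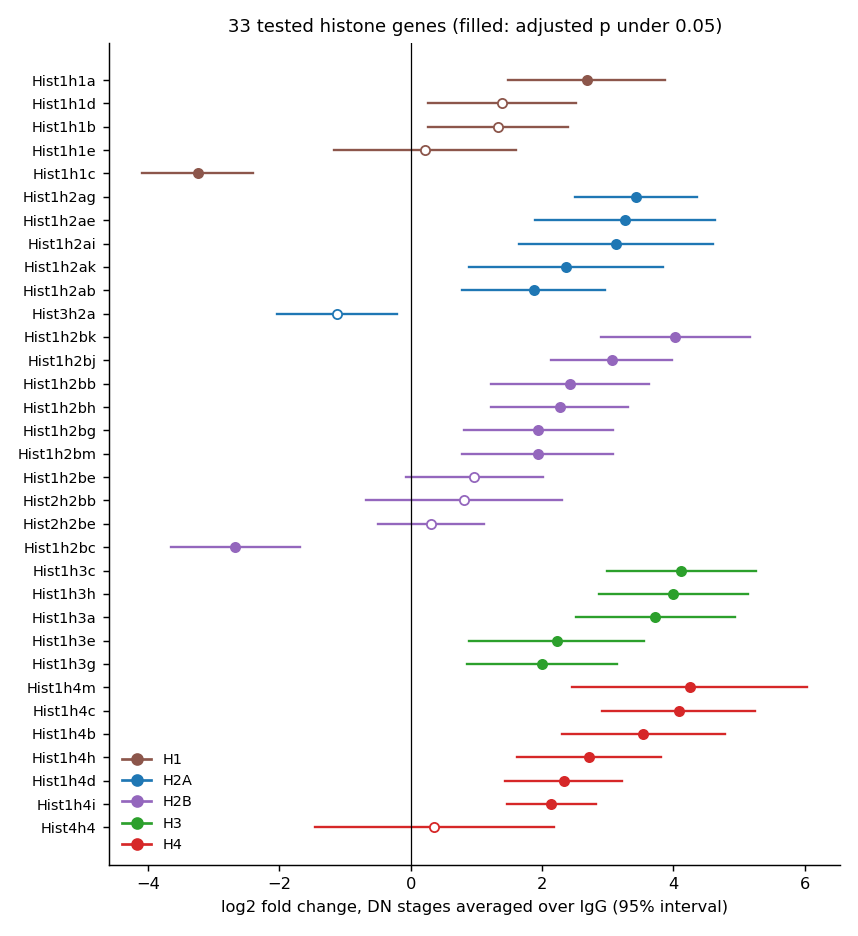
log2 fold change of the mean of the DN stages over IgG (x axis) with its 95% interval for the 33 histone genes that passed the low-count filter (y axis), 28 of them only through DN libraries, coloured by class. Filled points have an adjusted p below 0.05. Hist1h1c and Hist1h2bc lie left of 0, and the 23 filled points right of 0 belong to Hist1.

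H3 genes, whose product carries many of the well-studied tail modifications, rose in part. Without the filter 6 of the 10 with a read rose, against 15.2% of all genes, and Hist1h3b, Hist1h3d, Hist1h3i and Hist2h3b did not pass the test. With the DN libraries of a label year summed 3 rose (Hist1h3a, Hist1h3c and Hist1h3h), against 12.6%. Hist1h3c had 0.194, 0.0395, 0.368 and 0.371 CPM in IgG. It had 3.98 and 4.87 CPM for the DN1 pair, 5.25 and 3.38 for the DN2a pair, 6.24 and 4.45 for the DN2b pair. Every DN library lay far above every IgG library (log2 fold change 4.12, SE 0.58, edgeR adjusted p = 0.000365).

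Hist1h3a ranged from 0.0485 to 0.270 CPM in IgG and from 1.06 to 3.51 CPM in DN (log2 fold change 3.73, SE 0.62, edgeR adjusted p = 0.00094). Hist1h3h had 1, 3, 2 and 3 reads in IgG and 22 to 28 reads in each DN library. Its pooled rate in DN was 17.7 times that in IgG (exact 95% counting interval 9.08 to 39.4), and its unique share was only 5.85%. Hist1h3e and Hist1h3g rose by 2.22 and 1.995 on the log2 scale. Without the filter the 10 H3 genes spanned log2 fold changes from 0.55 (Hist1h3d, edgeR adjusted p = 0.627) to 4.11 (Hist1h3c).

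H4 genes, which encode the other core histone of the central tetramer, were divided. Without the filter 6 of the 12 with a read rose, against 15.2% of all genes, and Hist1h4a, Hist1h4f, Hist1h4j, Hist1h4k, Hist2h4 and Hist4h4 did not pass the test. The count was also 6 with the DN libraries of a label year summed, against 12.6%. Hist1h4i, in the middle stretch of Hist1 at chr13:22040636-22041362, would have passed the filter through IgG libraries as well. It had 1.26, 1.46, 2.46 and 2.22 CPM in IgG, 4.86 and 9.46 for the DN1 pair, 8.82 and 12.8 for the DN2a pair, 8.59 and 9.39 for the DN2b pair. The groups did not overlap (log2 fold change 2.14, SE 0.35, edgeR adjusted p = 0.00079).

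Hist1h4c ranged from 0.0485 to 0.236 CPM in IgG and from 1.02 to 3.74 CPM in DN (log2 fold change 4.08, SE 0.59, edgeR adjusted p = 0.000454). Hist1h4b ranged from 0.0791 to 0.396 CPM in IgG and from 1.28 to 4.23 CPM in DN, with a log2 fold change of 3.54. Its model overlaps another gene, 4930558J22Rik, and the strand setting of the counting is not given in the sources used here. Hist1h4m had 0, 0, 2 and 2 reads in IgG against 4 to 32 in each DN library. Its pooled rate ratio of 24.2 had an exact 95% counting interval of 9.14 to 90.5, so the size of its change is poorly fixed.

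Hist4h4, an H4 gene that stands alone on chromosome 6, passed the filter but not the test. It had 0.921, 0.356, 0.226 and 0.674 CPM in IgG. It had 0 and 0.811 CPM for the DN1 pair, 0.583 and 2.08 for the DN2a pair, 0.520 and 1.13 for the DN2b pair. The groups overlapped throughout (log2 fold change 0.36, 95% interval -1.46 to 2.18, edgeR adjusted p = 0.761).

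H2A genes were divided within Hist1. Without the filter, 7 of the 11 Hist1 H2A genes with a read rose (15.2% of all genes), Hist1h2aa and Hist1h2af fell (23.0%), and Hist1h2ad and Hist1h2an were not called. None of the 4 H2A genes with a read outside Hist1 passed the test. With the DN libraries of a label year summed, 4 rose (12.6% of all genes) and none fell (13.3%). Hist1h2ag had 0.339, 0.277, 0.311 and 0.405 CPM in IgG, 1.77 and 5.08 for the DN1 pair, 3.46 and 4.60 for the DN2a pair, 4.88 and 4.05 for the DN2b pair. No DN library came near the IgG range (log2 fold change 3.43, SE 0.48, edgeR adjusted p = 0.000346). The other 4 Hist1 H2A genes that passed the filter rose by 1.87 (Hist1h2ab) to 3.27 (Hist1h2ae) on the log2 scale. Every Hist1 H2A model, those of Hist1h2ac and Hist1h2aa included, overlaps another gene model, and the strand setting of the counting is not given.

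Hist3h2a is in the Hist3 cluster at chr11:58954685-58956830 and overlaps the Trim17 model. It had 6.54, 2.41, 4.75 and 3.54 CPM in IgG, 3.62 and 1.03 for the DN1 pair, 1.64 and 3.45 for the DN2a pair, 1.69 and 2.02 for the DN2b pair. Its mean was lower in each DN group but the ranges overlapped (log2 fold change -1.12, 95% interval -2.04 to -0.20, edgeR adjusted p = 0.0676). Hist3h2a was called lower without DN1 replicate 1 (edgeR adjusted p = 0.0247) and with DESeq2 (adjusted p = 0.0430).

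H2B genes were mixed, with members of Hist1 that rose, Hist1h2bc that fell and Hist2 genes that did neither. Hist1h2bk had 0.0969, 0.158, 0.368 and 0.303 CPM in IgG, 1.28 and 4.22 for the DN1 pair, 5.06 and 5.68 for the DN2a pair, 6.18 and 3.97 for the DN2b pair. DN1 replicate 1 was the lowest DN library and still lay above all IgG libraries (log2 fold change 4.03, SE 0.58, edgeR adjusted p = 0.00042).

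Hist1h2bc ran in the opposite direction, with 58.4, 10.9, 23.5 and 11.7 CPM in IgG. It had 7.60 and 6.87 CPM for the DN1 pair, 2.88 and 2.95 for the DN2a pair, 4.16 and 5.75 for the DN2b pair. IgG replicate 1 was the highest by a wide margin, and all DN libraries lay below all IgG libraries (log2 fold change -2.67, SE 0.50, edgeR adjusted p = 0.00173). Without IgG replicate 1 the log2 fold change was -1.82 (edgeR adjusted p = 0.00204). In DN1 over IgG its adjusted p was 0.0495, and without IgG replicate 1 it was 0.0561 with a log2 fold change of -1.33 in place of -2.18. In all, this DN1 call was lost under 14 of 20 other settings.

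Hist2h2be and Hist2h2bb, the tested H2B genes of Hist2, did not pass the test. Hist2h2be had 5.04, 8.23, 5.23 and 2.87 CPM in IgG, 11.3 and 8.06 for the DN1 pair, 3.50 and 7.69 for the DN2a pair, 6.05 and 9.87 for the DN2b pair. IgG and DN overlapped (log2 fold change 0.31, 95% interval -0.49 to 1.11, edgeR adjusted p = 0.544). Hist2h2bb had 0.311 to 0.775 CPM in IgG and 0.270 to 3.81 CPM in DN (log2 fold change 0.81, edgeR adjusted p = 0.387). Its DN values were uneven, at 3.81 and 2.83 CPM in replicate 2 of DN2a and DN2b and at 0.270 to 0.455 CPM in the other 4. Both high libraries carry the same date in their labels.

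Among the 6 H1 genes, 1 rose and 1 fell in the fit without the filter, counts near or below the shares of all genes (15.2% and 23.0%). Hist1h1c, which encodes linker histone H1.2, had 22.3, 27.6, 28.2 and 17.4 CPM in IgG. It had 5.17 and 2.33 CPM for the DN1 pair, 1.35 and 4.31 for the DN2a pair, 1.17 and 3.24 for the DN2b pair. The lowest IgG library was more than 3 times the highest DN library (log2 fold change -3.24, SE 0.43, edgeR adjusted p = 0.000273).

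Hist1h1a, encoding H1.1, rose by 2.68 on the log2 scale (SE 0.61, edgeR adjusted p = 0.00482). It lay at 0.0969 to 0.475 CPM in IgG and 0.919 to 8.48 CPM in DN, with the top value in DN2a replicate 2. Hist1h1d lay at 0.339 to 1.69 CPM in IgG and 1.53 to 5.60 CPM in DN (log2 fold change 1.40, SE 0.58, edgeR adjusted p = 0.0647). Hist1h1b (log2 fold change 1.33) and Hist1h1e (0.22) also missed the threshold, and the Hist1h1e model overlaps that of Hist1h2be. The testis H1 gene Hist1h1t had 1 read in all libraries together.

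**Figure D4:**
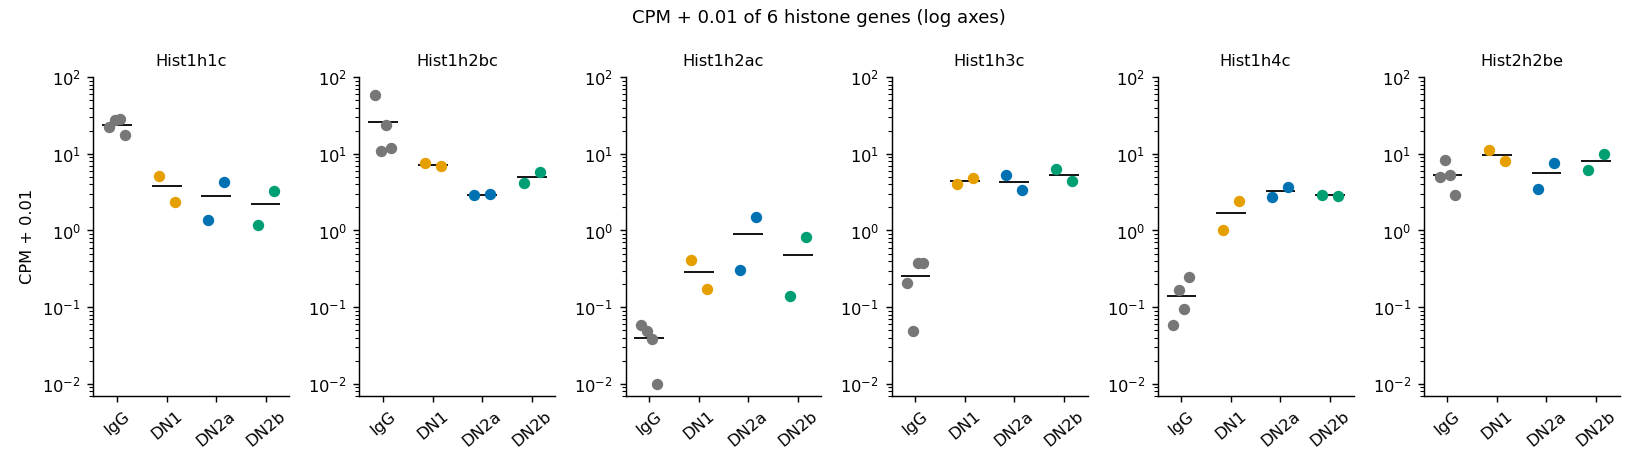
CPM + 0.01 (y axes, log scale) of 6 histone genes by group (x axis). Points are libraries and lines are group means. Hist1h1c and Hist1h2bc are lower in all 6 DN libraries than in all 4 IgG libraries, Hist1h2ac, Hist1h3c and Hist1h4c are higher, and Hist2h2be overlaps.

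Per kilobase of unique 36-base stretch, the order of the genes changed between the conditions. In IgG, Hist1h2bc (35.2 CPM per unique kb) and Hist1h1c (17.5) came first, followed by Hist1h4i (4.02). The value of Hist1h2bc was 20.7 without IgG replicate 1, and in IgG replicate 2 Hist1h1c (20.3) lay above Hist1h2bc (14.6), so the order of these 2 is not fixed. Nor was the place of Hist1h4i after them. Hist1h2bm (4.18) lay above Hist1h4i (2.73) in IgG replicate 1, and Hist1h2aa (5.63) above it (3.17) in IgG replicate 2. In IgG replicates 3 and 4 Hist1h4i came next after the first 2, at 5.34 and 4.83. In the DN libraries, Hist1h2bk (39.98), Hist1h2bj (22.9), Hist1h4i (19.5), Hist1h4b (18.3) and Hist1h3c (16.8) led, with Hist1h2bc at 6.77 and Hist1h1c at 2.14. These are means over libraries of genes with at least 100 unique stretches, and the replicate ranges of neighbours in the DN order overlap. Members under that cutoff, among them Hist1h2ag (92 unique stretches) and Hist1h2ai (34), were not placed, so the leaders depend on the cutoff.

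Head-to-head pairs allow an H2A gene to be set beside the H2B gene that starts next to it. There were 13 such pairs with starts at most 500 bases apart. In the pair Hist1h2ag and Hist1h2bj, both rose (log2 fold changes 3.43 and 3.06), and so did both genes of Hist1h2ae and Hist1h2bg (3.27 and 1.94). Without the filter Hist1h2ah and Hist1h2bk, and Hist1h2ai and Hist1h2bl, also both rose, and Hist1h2ak rose without Hist1h2bn. With label years summed, Hist1h2bg, Hist1h2ah and Hist1h2ak lost the call. In the pairs of Hist1h2ad, Hist1h2an, Hist2h2ac and Hist3h2a neither gene was called, and those of Hist1h2ao and Hist1h2ap had no reads.

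The pair Hist1h2ac and Hist1h2bc, whose starts lie 251 bases apart, differed in direction. Hist1h2ac had 1, 1, 1 and 0 reads in IgG. It had 9 and 3 reads for the DN1 pair, 8 and 21 for the DN2a pair, 2 and 10 for the DN2b pair. Every DN library lay above every IgG library in CPM, at a pooled rate ratio of 17.8 (exact 95% counting interval 5.76 to 89.0), although the gene was too low for the filter. In the fit without the filter its log2 fold change was 3.72 (SE 1.08, edgeR adjusted p = 0.0165). Hist1h2bc, across the shared window printed above, fell from 2661 reads over the IgG libraries to 554 over the DN libraries. Interval bounds of pooled rates cover counting error only.

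The pair Hist1h2aa and Hist1h2ba, known as testis histone genes, had few reads. Hist1h2aa had 11, 46, 34 and 20 reads in IgG and 0 to 4 in each DN library, a pooled rate 18.4 times that in DN (exact 95% counting interval 8.18 to 51.2). It fell in the fit without the filter (edgeR adjusted p = 0.00638), but not with the DN libraries of a label year summed (0.0555). Hist1h2ba had 6 reads over the IgG libraries and 0 over the DN libraries, too few to compare at this depth (edgeR adjusted p = 0.0533). Hist1h2af, another H2A gene of low unique share, had 1, 5, 17 and 39 reads in IgG and 0 to 6 in each DN library, so that the groups overlapped (edgeR adjusted p = 0.0147 without the filter, 0.140 with the DN libraries of a label year summed). These low members were named after their values were seen.

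Between DN stages no histone gene passed the test. In DN2a over DN1 the 33 log2 fold changes ranged from -1.11 to 2.77 with a median of 0.77, and 0.401% of all genes were called. In DN2b over DN1 they ranged from -0.58 to 2.36 with a median of 0.75, and 1.91% of all genes were called. In DN2b over DN2a they ranged from -1.21 to 0.76 with a median of -0.13, and edgeR called 0 genes, with 335 at an unadjusted p below 0.05. DESeq2 called 16 higher and 13 lower there. At an unadjusted p below 0.05, edgeR gave 3 members in DN2a over DN1 and none in the others. They were Hist1h1a, Hist1h1b and Hist2h2bb. DESeq2 also called no member in the 3 comparisons. The medians moved when 1 library was left out. That of DN2a over DN1 was 0.40 without DN2a replicate 2, 0.41 without DN1 replicate 1 and 1.35 without DN1 replicate 2. That of DN2b over DN1 was 0.40 without DN1 replicate 1 and 1.14 without DN1 replicate 2. That of DN2b over DN2a had no stable sign, at -0.31 without DN2a replicate 1, 0.31 without DN2a replicate 2 and 0.066 without DN2b replicate 2.

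The intervals were wide with 2 libraries a stage. For Hist1h4i the 95% interval of DN2a over DN1 ran from -0.19 to 1.74 and for Hist1h1c from -1.50 to 1.12. For Hist1h3c the interval of DN2b over DN1 ran from -0.96 to 1.88. Changes of several-fold are thus not excluded by these data.

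**Figure D5:**
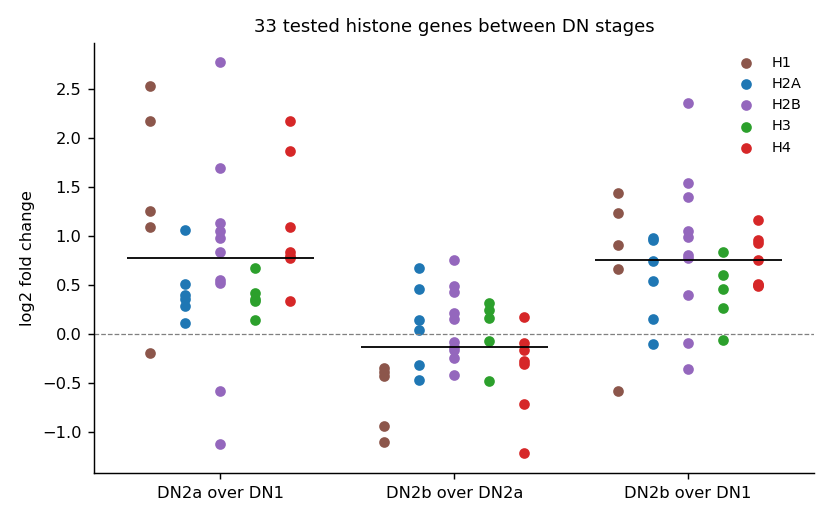
log2 fold change (y axis) of the 33 tested histone genes in the 3 comparisons between DN stages (x axis), coloured by class, with the median as a line. Medians are 0.77, -0.13 and 0.75, and no gene had an adjusted p below 0.05.

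Genes that make or handle histones were set beside the members as 4 lists, for the mean of the DN stages over IgG. Of 16 genes for histone mRNA synthesis and processing, 8 rose and none fell, where 24.8% of all genes tested rose and 30.0% fell. Cstf2, a subunit of the cleavage stimulation factor, rose by 1.37 (log2), Coil, the scaffold of Cajal bodies, by 1.21, Snrpd3, an Sm core protein, by 0.97 and Cpsf2, a subunit of the histone pre-mRNA cleavage complex, by 0.83. The list's median log2 fold change was 0.49 and that of all genes tested was -0.03.

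Of 11 replacement histone variants, which are made outside S phase as well, 4 rose and none fell, the lowest such share of the 4 lists. H2afz, encoding H2A.Z, rose by 1.28, from 672 ± 164 CPM in IgG (SD, n = 4) to group means of 1483 to 1986 CPM. H1fx rose by 1.81, H2afv by 1.19 and H3f3a, an H3.3 gene, by 0.70. Of 21 histone chaperone and acetylation genes, 11 rose and none fell, among them Nap1l1 (1.28), Rbbp7 (1.25), Asf1a (1.22) and Mms22l (1.18). Of 30 S phase genes, 24 rose and none fell, led by Prim1, a DNA primase subunit (1.93), and followed by Ccne2 (1.62), Ung (1.58) and the helicase subunit Mcm6 (1.54). The medians were 0.40, 0.60 and 1.12. Between DN stages none of the genes in these 4 lists passed the test.

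Cell type markers moved with the same contrast. The summed level of 9 myeloid and granulocyte markers was 17106 to 43201 CPM in IgG, 1668 and 114 CPM in DN1, and 2.86 to 11.1 CPM in DN2a and DN2b. All 9 fell, against 30.0% of all genes tested. The summed level of 7 T progenitor markers was 1.41 to 7.16 CPM in IgG and 330.2 to 3327 CPM in DN. All 7 rose, against 24.8% of all genes tested. Il2ra in this list, the gene of CD25, and Kit, named below, encode proteins used in the DN sort. Their values are therefore not independent of it. The summed level of 5 mast cell markers was 29.2 to 128 CPM in IgG and 251 to 1524 CPM in DN, highest in DN1 replicate 1, which also had 116 CPM of 5 erythroid markers (2 of them at 0 in all libraries) against at most 3.40 elsewhere. Within the mast cell list the markers did not move together: Cpa3 rose (log2 fold change 3.73), Fcer1a was not called, and Mcpt8 (-2.58), Cma1 (-4.94) and Tpsb2 (-9.61) fell. Cpa3 alone lay at 8.26 to 59.4 CPM in IgG and 250.2 to 1175 CPM in DN. The 5 B cell markers were low but higher in every DN library, at 0.170 to 0.581 CPM in IgG and 1.06 to 7.69 CPM in DN, and Vpreb1, the only one that passed the filter, rose (log2 fold change 3.28). The sums of the 5 stem and progenitor markers overlapped, at 437 to 1822 CPM over all libraries, but Cd34 (1.71), Kit (1.70) and Meis1 (1.28) rose and Ly6a (-1.72) fell, in log2 fold changes. Fewer cells of a type and less RNA per cell cannot be told apart in bulk samples, and the part that cell type makeup has in the histone differences was not tested.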

How the data were processed

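Per the labels and the study's methods, RNA was extracted from each culture or sorted population, and libraries were made with a kit labelled as stranded total RNA. The authors trimmed reads to 36 bases, used a single read end, aligned to mm10 with TopHat2 2.12 and counted reads per gene with HTSeq 0.6.1p1 in intersection-strict mode. The submitters' processing notes also name Cufflinks 2.2.1. The deposited values are raw counts per gene, with 5 summary lines per library, which were left out of totals and tests. The annotation and strand setting are not given in the sources used here. Reads with more than 1 alignment were not assigned to genes, which lowers counts of near-identical histone genes. The files list 27 gene symbols converted to dates. None of them is a histone gene.

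CPM was computed over gene rows. The 12221 genes that reached 1 CPM in 2 or more libraries were tested with edgeR 4.0.16 (quasi-likelihood, TMM, R 4.3.3), with all 4 groups in 1 fit and Benjamini-Hochberg adjustment. Replicates came from independent LSK isolates according to the methods. For the replicate block, libraries were paired by the year in the label; the methods state that all DN populations were taken from each LSK replicate, but which libraries share one is read here from the year, and DN2a and DN2b share label dates. Deviations of same-year libraries from the group means correlated at 0.06 (DN1 and DN2a), 0.19 (DN1 and DN2b) and 0.45 (DN2a and DN2b) over 12221 genes. Alternatives included DESeq2 1.42.0, other scalings, filters and control libraries, leaving out each library, and, added after the data were seen, the DN libraries of a label year summed. The code was tested on simulated data.

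Members and lists were chosen with earlier results of these data known. Named in full were the 2 members with the highest mean CPM in each class, tested members outside Hist1, and up to 6 called members per direction and comparison. From each list up to 4 called genes were named. Unique 36-base stretches, stem-loops and pairs were computed from GENCODE vM21, and promoters were taken from RefSeq (Python 3.11.15).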

Additional observations from a re-analysis of the deposited data

How the results depend on the processing

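Between IgG and the DN stages, the counts of called histone genes stayed within 1.5 times of 16 (DN1), 26 (DN2a), 24 (DN2b) and 25 (mean of the DN stages) except in these cases. With control libraries D1 and D2 only they were 10 in DN1, 16 in DN2a and 13 in DN2b, while the share of all genes called fell from 31.4% to 18.8%, from 45.5% to 31.3% and from 42.5% to 26.5%. Leaving out 1 library gave 6 to 15 in DN1 (lowest without DN1 replicate 2), 14 to 25 in DN2a (lowest without DN2a replicate 2), 14 to 25 in DN2b (lowest without DN2b replicate 1) and 21 to 26 for the mean. The cause was not tested. With the DN libraries of a label year summed, an alternative chosen after the data were seen, the count for the mean was 19 with the low-count filter and 21 without it.

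With the replicate block, 0 histone genes were called between DN stages, as without it; all genes called were 67 with the block and 32 without it in DN2a over DN1, in the 6 DN libraries. The summed CPM in IgG was 49.0 without Hist1h2bc, against 75.1. In DN1 it was 65.1 with DESeq2 size factors and 58.3 when scaled to all tallied reads, against 78.9. In DN2b it was 94.96 with DESeq2 size factors, 64.7 when scaled to all tallied reads and 95.01 without Hist1h2bc, against 99.97. Leaving out 1 library gave 65.5 to 80.8 in IgG, 72.3 to 85.6 in DN1, 80.0 to 129 in DN2a and 97.0 to 103 in DN2b.

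Of 799 refits of 40 fold changes of named genes, 756 kept their direction and side of the threshold, 36 lost the call, 4 gained one and 3 changed sign. Those that gained a call were Hist1h1d without DN2a replicate 1, Hist3h2a without DN1 replicate 1, and both genes with DESeq2. Those that changed sign were all uncalled: Hist2h2be at -0.12 and Hist4h4 at -0.021 with D1 and D2 only, and Hist4h4 without DN1 replicate 2, within a range of -1.65 to 0.80 when 1 library was left out. No outlying control library was found among 22 values checked. Low counts and shared sequence limit what can be said of the 35 members below the filter, 8 of them without a read.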
